A study of Bos indicus and Bos taurus with 17 samples.

Results

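The genes described here make up the core of the circadian clock. They were 10 genes taken by name: the activators ARNTL (also called BMAL1), CLOCK and NPAS2, the repressors PER1, PER2, PER3, CRY1 and CRY2, the nuclear receptor NR1D1 and the output factor DBP. Of these, 8 were found among the 21631 distinct gene names of the expression table, each in 1 entry of its own. PER2 and PER3 were not matched to an entry and were not analysed here.

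The values came from RNA sequencing of epithelial cells captured from milk of Kashmiri and Jersey cattle with antibody-coated magnetic beads against cytokeratin 18. Milk was sampled on D15, D90 and D250 of lactation, and the labels named 3 samples for every group of breed and day except Jersey cattle at D90, with 2. In Kashmiri cattle, 1 sample was from lactation 2 and 2 were from lactation 3 at D15, all 3 were from lactation 2 at D90, and 1 was from lactation 2 and 2 were from lactation 3 at D250. In Jersey cattle, 2 samples were from lactation 2 and 1 was from lactation 3 at D15, 1 of each at D90, and all 3 were from lactation 2 at D250. In both breeds the D15 samples were labelled March, the D90 samples July and the D250 samples December, so day of lactation and month cannot be told apart. These are the labels' values, and the study's methods differ from them, giving all cows the same lactation number and the same number of cows to each breed on every day. The hour of milking, on which clock gene levels depend, was not given in the sources used here. Levels are FPKM as deposited, that is, fragments per kilobase of a transcript set relative to the mapped reads of the library, and each gene has 1 such value per group. There was therefore no replicate, no error and no test, the depth behind a value is unknown, and 1 cow could carry a group value.

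The clock is a feedback loop of transcription. ARNTL pairs with CLOCK or with NPAS2, and the pair switches on the PER and CRY genes, NR1D1 and DBP. PER and CRY proteins then block the pair, and NR1D1 represses ARNTL, so ARNTL and the genes it drives peak at opposite times of day in most tissues. In the lactating mammary gland, clock genes are known to be expressed in epithelial cells and to shift between pregnancy and lactation.

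Among the activators, ARNTL had the highest FPKM in every group. For D15, D90 and D250, the ARNTL levels were 5.05, 12.9 and 7.01 FPKM in Kashmiri cattle. The Jersey levels on the same days were 1.57, 2.67 and 3.92 FPKM. Every Kashmiri value lay above every Jersey value, and the D90 peak of Kashmiri cattle had no counterpart in Jersey cattle, where the highest level was that of D250.

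CLOCK, the usual partner of ARNTL, was low, at 0.345, 0.458 and 1.18 FPKM in Kashmiri cattle and at 0.275, 0.845 and 0.990 FPKM in Jersey cattle on D15, D90 and D250. The levels were lowest at D15 and highest at D250 in both breeds. NPAS2, which can take the place of CLOCK, was at 1.08, 0.342 and 1.35 FPKM in Kashmiri cattle and at 0.247, 0.0313 and 0.264 FPKM in Jersey cattle. Its lowest level in each breed was at D90, the day of the ARNTL peak in Kashmiri cattle. CLOCK reached 1 FPKM in 1 of the 6 groups and NPAS2 in 2, so their ratios rest on low values.

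Among the repressors, PER1, a gene also induced directly by glucocorticoids and cyclic AMP, had the widest range of log2(FPKM + 1) of the 8 genes. PER1 was at 20.3, 41.9 and 12.9 FPKM in Kashmiri cattle and at 4.85, 4.44 and 4.71 FPKM in Jersey cattle on D15, D90 and D250. It peaked at D90 in Kashmiri cattle and was nearly level in Jersey cattle, below the lowest Kashmiri value on every day. At the D90 peak, 92.6% of all gene names had a lower FPKM in that group.

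CRY1, a late-acting repressor of the loop, was at 4.06, 5.09 and 5.68 FPKM in Kashmiri cattle and at 2.21, 1.89 and 2.75 FPKM in Jersey cattle. All 3 Kashmiri values were above all 3 Jersey values. Its paralogue CRY2 was at 10.1, 6.38 and 5.28 FPKM in Kashmiri cattle and at 7.38, 5.33 and 5.68 FPKM in Jersey cattle, and the breeds overlapped. CRY2 was the steadiest of the 8 genes in fold terms, its highest level being 1.91-fold its lowest.

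NR1D1 (REV-ERBα), the repressor of ARNTL, was at 3.99, 0.775 and 1.49 FPKM in Kashmiri cattle and at 1.33, 0.398 and 0.750 FPKM in Jersey cattle on D15, D90 and D250. DBP, a D-box activator that is a direct output of ARNTL and CLOCK, was at 25.3, 6.88 and 9.78 FPKM in Kashmiri cattle and at 15.4, 4.89 and 7.49 FPKM in Jersey cattle. Both genes were highest at D15, lowest at D90 and in between at D250 in each breed. NR1D1 overlaps THRA on the opposite strand in mammals, and whether strand was used in counting is not given in the sources used here, so its level may hold reads of that gene.

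**Figure D1:**
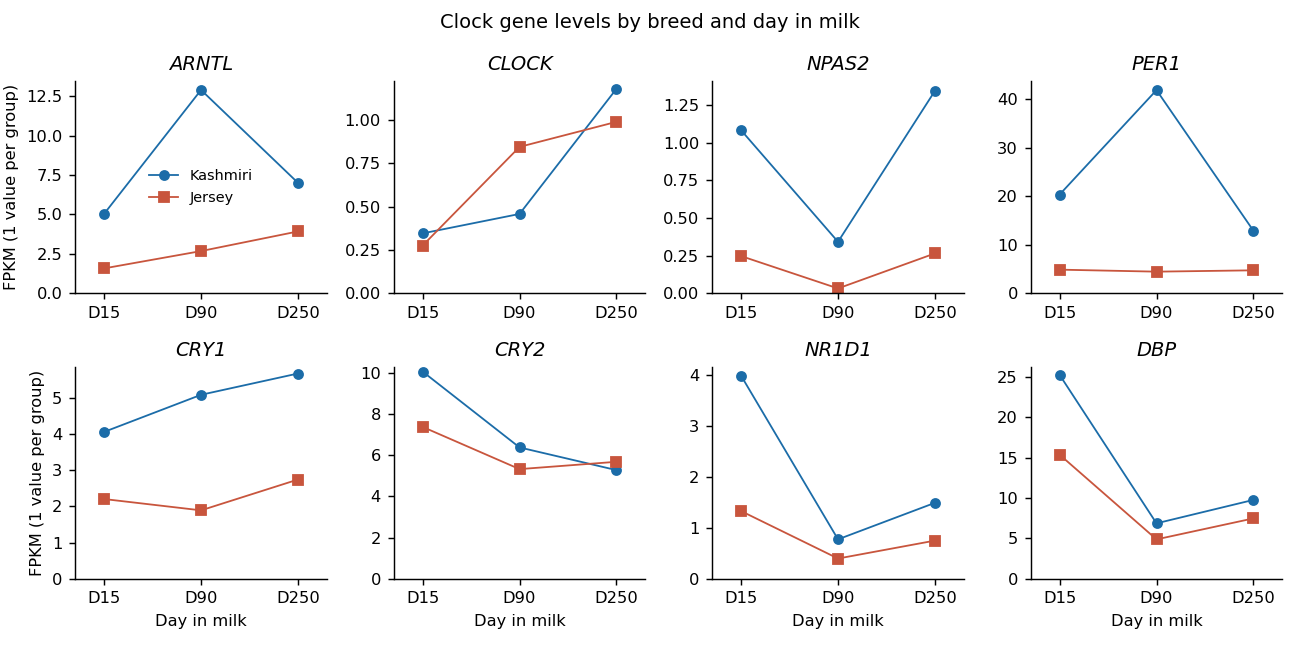
FPKM (linear axis, starting at 0, 1 value per group and no error) of the 8 clock genes by day in milk, with Kashmiri cattle as blue circles and Jersey cattle as red squares. ARNTL and PER1 peak at D90 in Kashmiri cattle (12.9 and 41.9 FPKM), while NR1D1 and DBP are lowest at D90 in both breeds.

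The order of the 8 genes within a group shifted with the day. In Kashmiri cattle DBP led at D15 with 25.3 FPKM, ahead of PER1 with 20.3 FPKM, and PER1 led at D90 and D250. ARNTL moved from the fourth place at D15 to the second place at D90, above DBP. In Jersey cattle DBP led at D15 and D250 and CRY2 led at D90, where CRY2, DBP and PER1 lay between 4.44 and 5.33 FPKM. With 1 value per group, which neighbours in these orders differ could not be tested.

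For the comparisons, a gene counted as tested where 1 or both of the groups reached 1 FPKM. It was called higher where the log2 ratio of FPKM + 1 reached 1 and lower where it reached -1, a size of difference and not a statistical test. All folds of single genes below are plain ratios of FPKM, while log2 ratios are of FPKM + 1 and so understate differences of low genes. Over the 9 comparisons, 15 of the 60 tested pairs of a clock gene and a comparison were past this limit, or 25.0%, while the share of all genes called ran from 17.7% to 42.4% in the single comparisons. The 8 genes together were thus called about as often as other genes, and what follows describes which of them differed and in which direction.

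From D15 to D90 in Kashmiri cattle, the period from early to peak lactation, ARNTL and PER1 parted from NR1D1 and DBP. ARNTL was 2.56-fold higher at D90 (log2 ratio 1.20) and PER1 2.06-fold higher (1.01, just past the limit). NR1D1 was 5.15-fold lower (-1.49) and DBP 3.68-fold lower (-1.74). These were 4 of the 7 clock genes tested, beside 33.5% of all genes tested, of which 14.7% were higher and 18.8% lower. NPAS2 was 3.17-fold lower with a log2 ratio of -0.64, within the limit, and CRY1 and CRY2 had log2 ratios of 0.27 and -0.58. The median log2 ratio was -0.58 over the 7 clock genes tested and -0.01 over all genes tested. With CLOCK, which was not tested, included, it was -0.23 over the 8 genes. None of the 8 changed sign when the FPKM were rescaled to the summed FPKM or to the upper quartile, and the 4 calls were kept under both.

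On the same days in Jersey cattle DBP was lower as well, while PER1 was nearly level. DBP was 3.15-fold lower at D90 (log2 ratio -1.48), the only one of the 6 clock genes tested that was past the limit, beside 29.8% of all genes called and 16.9% called lower. NR1D1 was 3.34-fold lower, but from 1.33 FPKM, so its log2 ratio of -0.74 stayed within the limit. ARNTL was 1.70-fold higher (0.51), PER1 1.09-fold lower (-0.11) and CRY1 had a log2 ratio of -0.15; the signs of PER1 and CRY1 turned when the FPKM were rescaled to the sum, and that of PER1 also with the upper quartile. DBP was thus lower past the limit in both breeds, as were 1137 of the 10436 genes tested in both, or 10.9%. The Jersey minus Kashmiri difference of the log2 ratios for these days was -1.11 for PER1, -0.69 for ARNTL, 0.75 for NR1D1 and 0.26 for DBP, and none of these differences could be tested.

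From D90 to D250, the late part of lactation, PER1 in Kashmiri cattle was 3.25-fold lower at D250 (log2 ratio -1.63), and only 2.42% of all genes tested had a lower ratio. It was the only one of the 8 clock genes past the limit, beside 17.7% of all genes called and 8.77% called lower, and with FPKM rescaled to the sum its log2 ratio was -0.97, just within the limit. ARNTL was 1.84-fold lower (-0.80), and DBP and NR1D1 were 1.42-fold and 1.93-fold higher, within the limit at 0.45 and 0.49. In Jersey cattle none of the 5 genes tested was past the limit, beside 20.9% of all genes. All 8 Jersey ratios were above 1-fold as deposited, but those of CLOCK, PER1 and CRY2 turned under both rescalings. These comparisons share the D90 groups with the ones before, so a high or low D90 value enters both.

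Between D15 and D250, the ends of the sampled lactation, DBP in Kashmiri cattle was 2.58-fold lower at D250 (log2 ratio -1.29) and NR1D1 2.67-fold lower (-1.001, at the limit). These were 2 of 8 clock genes, beside 25.7% of all genes called and 14.5% called lower, and the direction of this comparison depends on the scaling. With FPKM rescaled to the sum both were within the limit, at -0.34 and -0.30, PER1 and CRY2 changed sign, and 3 others were past the limit as higher: ARNTL (1.28), CLOCK (1.15) and CRY1 (1.24). In Jersey cattle none of the 6 genes tested was past the limit, beside 42.4% of all genes. The nearest were DBP, 2.06-fold lower with a log2 ratio of -0.95, and ARNTL, 2.49-fold higher with a log2 ratio of 0.93. DBP was lower past the limit with FPKM rescaled to the sum (-1.08) and with the upper quartile (-1.04), beside 42.6% and 42.0% of all genes called. Both genes were past the limit with a pseudocount of 0.1 FPKM, beside 51.9% of all genes.

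**Figure D2:**
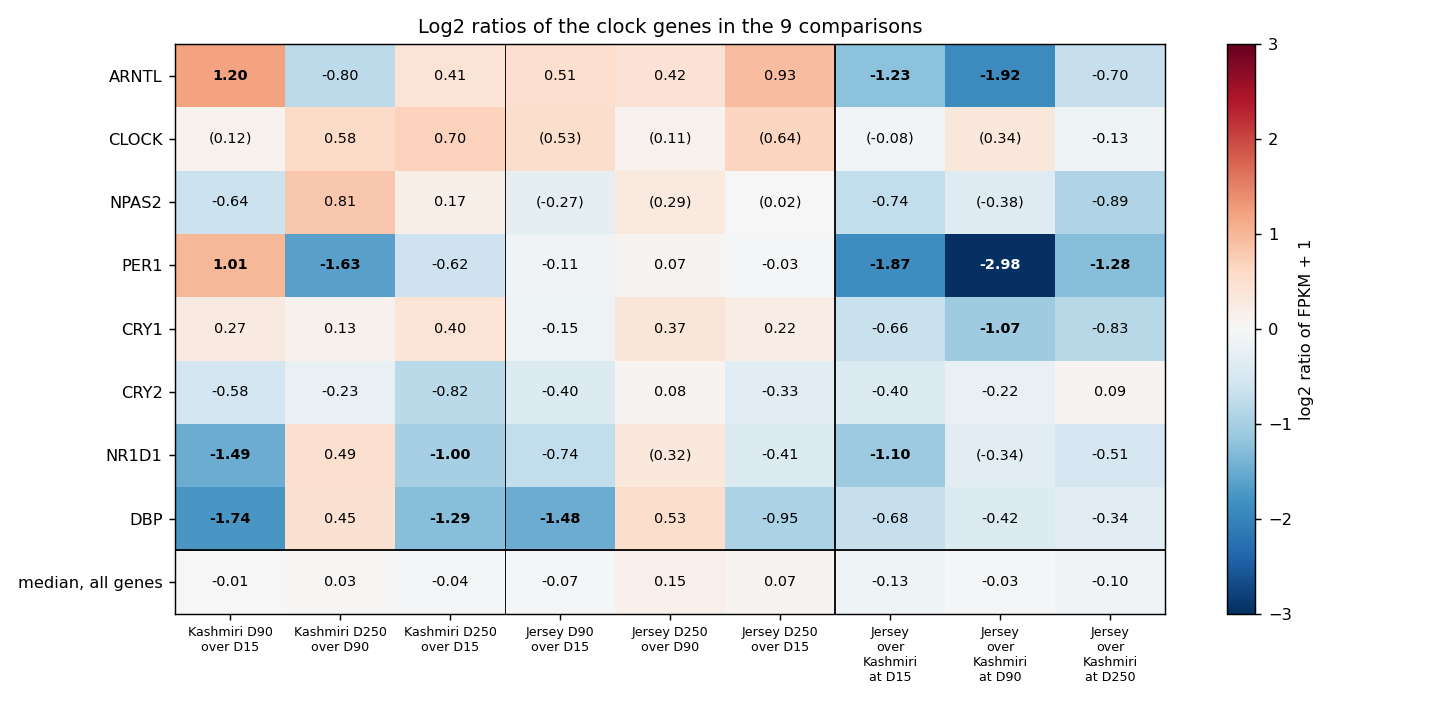
Log2 ratios of FPKM + 1 for the 8 clock genes (rows) in the 9 comparisons (columns), with the median of all genes tested in the bottom row, red for higher and blue for lower. Bold values are past the limit of 1 and bracketed values belong to genes below 1 FPKM in both groups. PER1 is lower in Jersey cattle on all 3 days (-1.87, -2.98 and -1.28), and DBP is lower at D90 than at D15 in both breeds (-1.74 and -1.48).

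Between the breeds, the clock genes past the limit were all lower in Jersey cattle as deposited, PER1 on each day, ARNTL at D15 and D90, NR1D1 at D15 and CRY1 at D90. Over the clock genes tested at D15, D90 and D250, the median log2 ratio was -0.74, -1.07 and -0.61. Over all genes tested it was -0.13, -0.03 and -0.10. With the clock genes below 1 FPKM in both groups included, the median over the 8 was -0.71, -0.40 and -0.61. At D15 all 8 ratios of Jersey over Kashmiri cattle were below 1-fold, except that CLOCK turned with FPKM rescaled to the sum. PER1 was 4.20-fold lower (log2 ratio -1.87), ARNTL 3.20-fold lower (-1.23) and NR1D1 3.00-fold lower (-1.10). These were 3 of 7 clock genes tested, beside 28.9% of all genes, of which 13.0% were lower. Rescaled to the sum, ARNTL (-0.91) and NR1D1 (-0.79) were within the limit.

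PER1 and ARNTL had their lowest Jersey over Kashmiri ratios at D90, and CRY1 did as deposited but had its lowest at D250 under both rescalings. PER1 was 9.44-fold lower in Jersey cattle (log2 ratio -2.98), and 1.86% of all genes tested had a lower ratio. ARNTL was 4.83-fold lower (-1.92) and CRY1 2.69-fold lower (-1.07, within the limit at -0.83 when rescaled to the sum). These were 3 of 5 clock genes tested, beside 32.9% of all genes, of which 15.9% were lower. At a stricter limit of 2 on the log2 scale, PER1 in this comparison was the only call among the clock genes in the 9 comparisons, beside 11.7% of all genes here. Of all genes, 7.5%, 1.98% and 4.05% passed that stricter limit in the Kashmiri comparisons of D90 with D15, D250 with D90 and D250 with D15, and 6.76%, 4.18% and 12.6% in the Jersey ones. Between the breeds, 8.57% passed it at D15 and 12.3% at D250. DBP and CRY2 had log2 ratios of -0.42 and -0.22, the latter turning when rescaled to the sum.

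At D250 PER1 was 2.74-fold lower in Jersey cattle (log2 ratio -1.28), the only one of 8 clock genes past the limit, beside 34.5% of all genes, of which 11.7% were lower. CRY1 was 2.07-fold lower (-0.83) and ARNTL 1.79-fold lower (-0.70). CRY2 was 1.08-fold higher, and its sign turned under both rescalings. The median over all genes moved from -0.10 to -0.74 with FPKM rescaled to the sum and to -0.52 with the upper quartile, so the level of this comparison depends on the scaling.

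PER1 was the 1 clock gene, of the 5 tested on all days, that was lower past the limit in Jersey cattle at D15, D90 and D250. Of the 10310 genes tested on all days, 387 did the same, or 3.75%. The PER1 log2 ratios remained past the limit with FPKM rescaled to the sum, at -1.49, -2.68 and -1.98, and with the upper quartile, at -1.96, -3.12 and -1.72.

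Ratios between genes within a group do not depend on the scaling of FPKM between groups. The ratio of ARNTL to DBP, an activator to its output, was 0.200, 1.88 and 0.717 in Kashmiri cattle against 0.102, 0.547 and 0.524 in Jersey cattle on D15, D90 and D250. At D90 it was 9.41-fold higher than at D15 in Kashmiri and 5.35-fold higher in Jersey cattle. The balance moved towards ARNTL in both breeds and by D250 had gone part of the way back in Kashmiri cattle.

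ARNTL over NR1D1, its repressor, went the same way, from 1.27 to 16.7 and 4.70 in Kashmiri cattle and from 1.18 to 6.72 and 5.23 in Jersey cattle. At D15 this ratio was nearly the same in the breeds, although both genes were about 3-fold lower in Jersey cattle. DBP over NR1D1, both of them outputs of the activators, stayed between 6.34 and 8.87 in Kashmiri and between 9.98 and 12.3 in Jersey cattle. DBP and NR1D1 thus roughly kept their proportion over the days within a breed while ARNTL moved against them. NR1D1 was below 1 FPKM in Kashmiri cattle at D90 (0.775) and in Jersey cattle at D90 and D250 (0.398 and 0.750). The ratios over NR1D1 rest on low values there.

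PER1 over DBP was 0.805, 6.09 and 1.32 in Kashmiri cattle against 0.315, 0.908 and 0.629 in Jersey cattle. PER1 was higher at D90 than at D15 in Kashmiri cattle, as was ARNTL, while DBP was lower. PER1 over ARNTL decreased over the days in both breeds, from 4.03 to 3.24 and 1.84 in Kashmiri and from 3.08 to 1.66 and 1.20 in Jersey cattle, so these genes did not keep their proportion either. CRY1 over CRY2 increased over the 3 days in both breeds, from 0.404 to 0.797 and 1.08 in Kashmiri and from 0.299 to 0.355 and 0.483 in Jersey cattle.

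**Figure D3:**
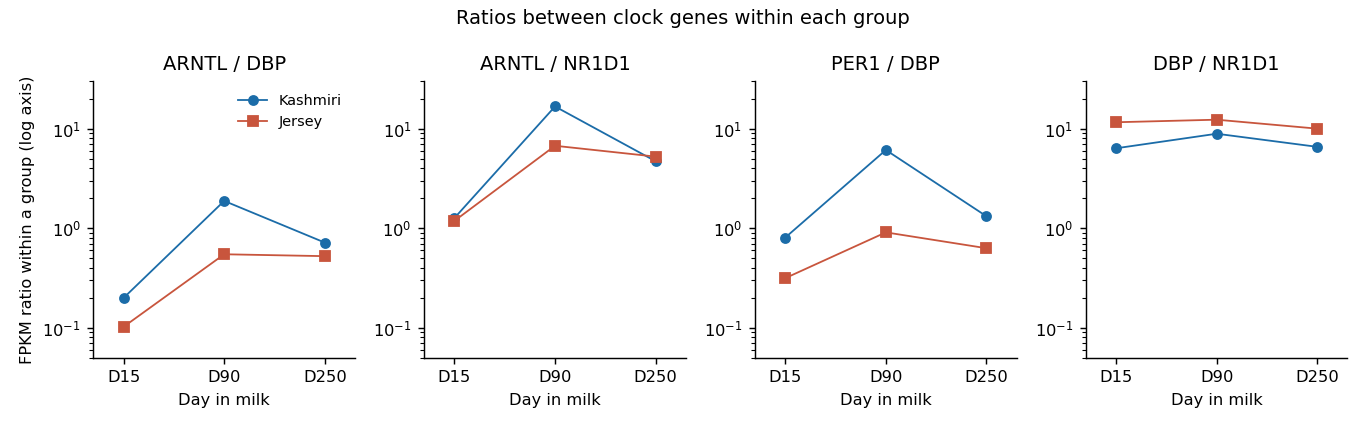
Ratio of FPKM between pairs of clock genes within each group (log axis) by day in milk, with Kashmiri cattle as blue circles and Jersey cattle as red squares and 1 value per group. ARNTL over DBP and ARNTL over NR1D1 are higher at D90 than at D15 in both breeds, while DBP over NR1D1 stays between 6.34 and 12.3.

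TEF and HLF belong with DBP to the PAR bZIP factors that activate D-boxes, and NFIL3 (E4BP4) is the repressor of the same element. TEF was at 18.2, 4.49 and 6.22 FPKM in Kashmiri cattle and at 4.95, 1.20 and 2.85 FPKM in Jersey cattle on D15, D90 and D250. HLF was at 20.5, 3.47 and 10.7 FPKM in Kashmiri cattle and at 3.34, 0.404 and 4.74 FPKM in Jersey cattle. NFIL3 was lowest at D15 in both breeds, with levels of 23.1, 77.7 and 38.9 FPKM in Kashmiri cattle against 97.1, 240.1 and 1149 FPKM in Jersey cattle.

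Between D15 and D90, TEF and HLF were lower past the limit and NFIL3 was higher in both breeds, calls that were kept under both rescalings. The log2 ratios in Kashmiri cattle were -1.80 for TEF, -2.27 for HLF and 1.71 for NFIL3, and in Jersey cattle -1.43, -1.63 and 1.30. All 3 D-box activators were therefore lower and the D-box repressor higher at D90 than at D15. Lower in both breeds for these days were 10.9% of all genes, and higher in both were 5.13%. TEF over DBP lay between 0.636 and 0.719 in Kashmiri cattle and between 0.246 and 0.381 in Jersey cattle. HLF over DBP varied more, at 0.813, 0.505 and 1.09 in Kashmiri cattle against 0.217, 0.0827 and 0.633 in Jersey cattle. Between D90 and D250 HLF was higher past the limit in both breeds (1.38 and 2.03), and in Jersey cattle NFIL3 was higher as well (2.25), so the activator and the repressor were called in the same direction there.

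The other genes of the core loop reported here were 8, all found: RORA and RORB, which activate ARNTL at the element NR1D1 represses, NR1D2, ARNTL2, BHLHE40, BHLHE41, CIART and TIMELESS. RORA was at 4.83, 11.2 and 7.45 FPKM in Kashmiri cattle and at 1.60, 0.922 and 2.32 FPKM in Jersey cattle, with its peak at D90 in Kashmiri cattle as for ARNTL. From D15 to D90 in Kashmiri cattle RORA was higher past the limit (log2 ratio 1.07).

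RORA was lower in Jersey than in Kashmiri cattle past the limit on all 3 days, with log2 ratios of -1.16, -2.67 and -1.35, although the D15 call was lost with FPKM rescaled to the sum. BHLHE40 (DEC1), a repressor that competes for the sites of the ARNTL pair, was at 33.5, 49.8 and 34.5 FPKM in Kashmiri cattle and at 56.2, 151 and 723 FPKM in Jersey cattle. It was higher past the limit on each later day in Jersey cattle and higher than in Kashmiri cattle at D90 (1.58) and D250 (4.35).

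CIART, another repressor of the pair, was at 0.0772, 0.433 and 0.511 FPKM in Kashmiri cattle and at 0.862, 3.39 and 2.16 FPKM in Jersey cattle. It was higher in Jersey cattle at D90 (1.61) and D250 (1.06, a call lost under both rescalings) and higher at D90 than at D15 within Jersey cattle (1.24). BHLHE41 lay between 1.26 and 3.15 FPKM and TIMELESS between 1.84 and 4.21 FPKM, with no call. NR1D2, the paralogue of NR1D1, was below 1 FPKM in every group, and ARNTL2 and RORB were listed at 0 in 4 and 5 groups. Per comparison, 4 or 5 of the 8 genes were tested and between 0 and 3 were called, beside 17.7% to 42.4% of all genes.

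**Figure D4:**
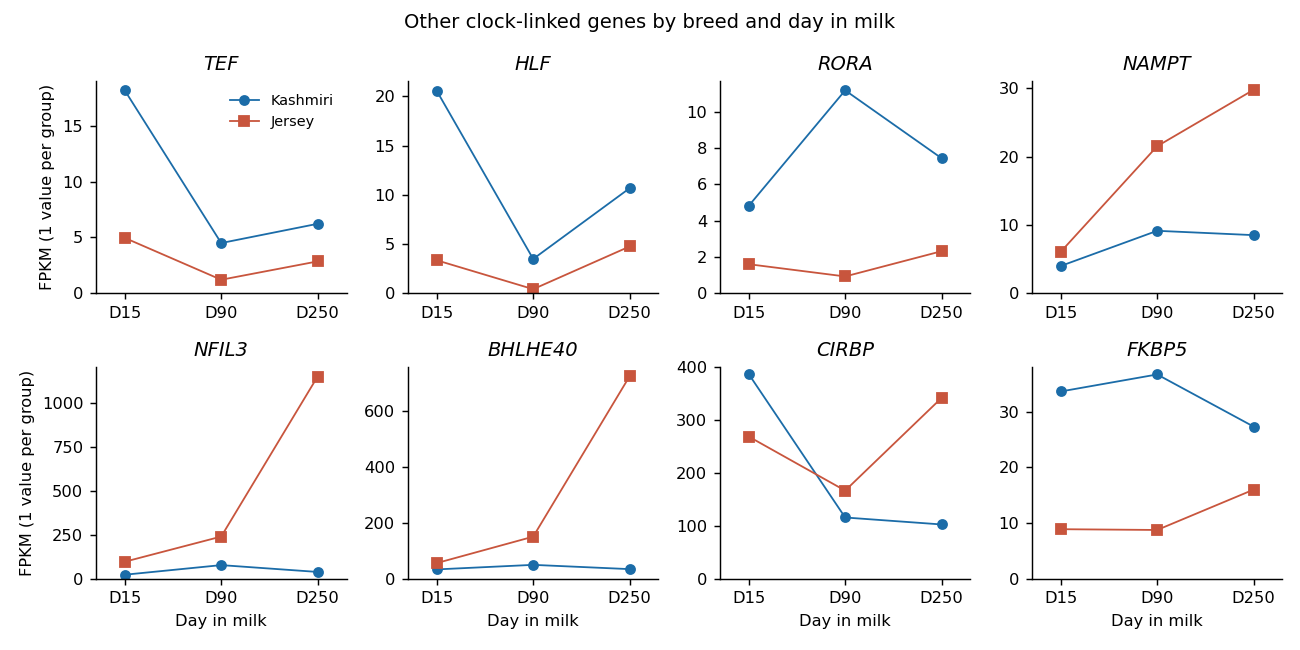
FPKM (linear axis, starting at 0, 1 value per group and no error) of 8 genes linked to the clock by day in milk, with Kashmiri cattle as blue circles and Jersey cattle as red squares. TEF and HLF are lowest at D90 in both breeds, and NFIL3 and BHLHE40 are highest in Jersey cattle at D250 (1149 and 723 FPKM).

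Of 9 genes for kinases, phosphatases and ubiquitin ligases that act on PER and CRY proteins, 6 were found and CSNK1E, GSK3B and FBXL21 were not matched. BTRC, a ligase for PER proteins, was at 1.70, 2.63 and 3.11 FPKM in Kashmiri cattle and at 2.90, 25.9 and 31.2 FPKM in Jersey cattle. It was past the limit from D15 to D90 in Jersey cattle (log2 ratio 2.78).

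The phosphatase gene PPP1CC was higher at D90 than at D15 in both breeds, from 19.8 to 52.1 FPKM in Kashmiri and from 13.2 to 28.8 FPKM in Jersey cattle. In Jersey cattle 4 of the 6 genes were higher at D250 than at D15 (FBXW11, BTRC, PPP1CB and PPP1CC, of which FBXW11 was lost with FPKM rescaled to the sum) and PPP1CA was lower, with a list median of 1.22 beside 0.07 over all genes. Of all 11320 genes tested there, 2778 were higher and 2022 lower. PPP1CB was lower in Jersey than in Kashmiri cattle at D15 (-1.17) and D90 (-1.19), both calls lost with FPKM rescaled to the sum. In Kashmiri cattle 1 of the 6 was past the limit from D15 to D90 (PPP1CC), none from D90 to D250 and 1 from D15 to D250 (PPP1CA, lower). Of all genes tested, 33.5%, 17.7% and 25.7% were past the limit in these comparisons. For D15 to D250 in Kashmiri cattle with FPKM rescaled to the sum, the PPP1CA call was lost and FBXW11, BTRC, PPP1CB and PPP1CC were higher past the limit, so no difference between the breeds is read from these counts. CSNK1D, the kinase of PER proteins, lay between 33.4 and 66.9 FPKM with no call.

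The 3 output genes were NAMPT, the enzyme that sets the rhythm of NAD synthesis, WEE1, a cell cycle kinase, and USP2. NAMPT was at 3.98, 9.14 and 8.50 FPKM in Kashmiri cattle and at 6.06, 21.5 and 29.8 FPKM in Jersey cattle, past the limit from D15 to D90 in both breeds (log2 ratios 1.02 and 1.67). It went the opposite way to DBP, although both are outputs of the activators. As deposited, NAMPT was also higher in Jersey than in Kashmiri cattle at D90 (1.15) and D250 (1.70). Within Jersey cattle it was higher at D250 than at D15 (2.12). WEE1 was at 2.60, 3.36 and 6.77 FPKM in Kashmiri cattle and between 1.97 and 2.28 FPKM in Jersey cattle. It was higher at D250 than at D15 in Kashmiri cattle (1.11) and lower in Jersey cattle at D250 (-1.24). At most 1 gene was higher and 1 lower per comparison, beside 17.7% to 42.4% of all genes called. USP2 was at or below 1.45 FPKM in every group, with no call.

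Markers of several cell types were present behind these levels. By qPCR of marker genes at D90, the paper compared the captured cells with all milk somatic cells and judged contamination by other cells minimal. The marker levels below are from the sequencing and were not set against that check. Of 14 listed mammary epithelial markers, 13 were found, none at 0, and BTN1A1 was not matched to an entry. Their summed level was 18239, 3175 and 10810 FPKM in Kashmiri cattle against 5595, 461 and 3888 FPKM in Jersey cattle on D15, D90 and D250. KRT18, the target of the capture antibody, was at 51.3, 9.13 and 11.5 FPKM in Kashmiri cattle and at 33.7, 1.59 and 4.51 FPKM in Jersey cattle. The epithelial markers were thus lowest at D90 in both breeds, on the day when DBP, NR1D1, TEF and HLF were lowest. At D90, 11 of the 13 were lower than at D15 past the limit in Kashmiri cattle (median log2 ratio -2.29) and 12 of 13 in Jersey cattle (-3.72). Of all genes tested, 18.8% in Kashmiri and 16.9% in Jersey cattle were lower past the limit. In a mixed population, fewer cells of a type and less RNA per cell cannot be told apart, and the part of the cell mixture in the clock gene differences was not tested.

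T and NK cell markers, all 10 found and none at 0, summed to 452, 1730 and 394 FPKM in Kashmiri cattle and to 299.7, 185 and 103 FPKM in Jersey cattle. They were highest in Kashmiri cattle at D90, as were ARNTL, PER1 and RORA. From D15 to D90 in Kashmiri cattle 7 of 10 were higher (median 1.85), beside 14.7% of all genes. From D90 to D250 all 9 tested were lower (-2.10), beside 8.77% of all genes. At D90 8 of 9 tested were lower in Jersey than in Kashmiri cattle (-3.59), beside 15.9% of all genes. At D15, where PER1 was 4.20-fold lower in Jersey cattle, 3 of 10 T and NK cell markers were lower and 1 was higher (-0.56), the 3 being within the limit with FPKM rescaled to the sum. At D250, where PER1 was 2.74-fold lower, 8 of 9 tested were lower (-1.76), beside 11.7% of all genes. B cell markers, all 6 found and none at 0, summed to 13.9, 68.9 and 28.2 FPKM in Kashmiri and to 25.2, 12.3 and 7.11 FPKM in Jersey cattle. The part of these cells in the PER1, ARNTL and RORA levels was not tested.

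Neutrophil markers, 9 of 12 found and none at 0, summed to 205, 539 and 661 FPKM in Kashmiri cattle and to 5331, 6669 and 15475 FPKM in Jersey cattle. All 9 were higher in Jersey cattle on each day, with medians of 4.59, 3.90 and 4.80, and the sum was highest in Jersey cattle at D250, as were NFIL3 and BHLHE40. Of all genes tested on D15, D90 and D250, 1781 of 11202, 1905 of 11209 and 2651 of 11642 were higher in Jersey cattle. Macrophage markers, all 10 found and none at 0, summed to 109, 483 and 491 FPKM in Kashmiri cattle and to 1014, 2145 and 1852 FPKM in Jersey cattle. CD68 was the largest part of the Jersey sum at D90 and D250 (1211 and 996 FPKM). From D90 to D250 in Jersey cattle 5 of 9 tested were lower and none higher (median -1.39), beside 462 of 10955 genes lower. Between the breeds 8 of 9 tested were higher in Jersey cattle at D15 and at D90 (3.77 and 1.93). At D250 4 of 9 were higher and 2 lower (0.10), beside 1366 of 11642 genes lower. The part of these cells in the levels of NFIL3, BHLHE40 and BTRC was not tested. Red blood cell markers, 4 of 5 found, summed to at most 0.976 FPKM in any group.

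**Figure D5:**
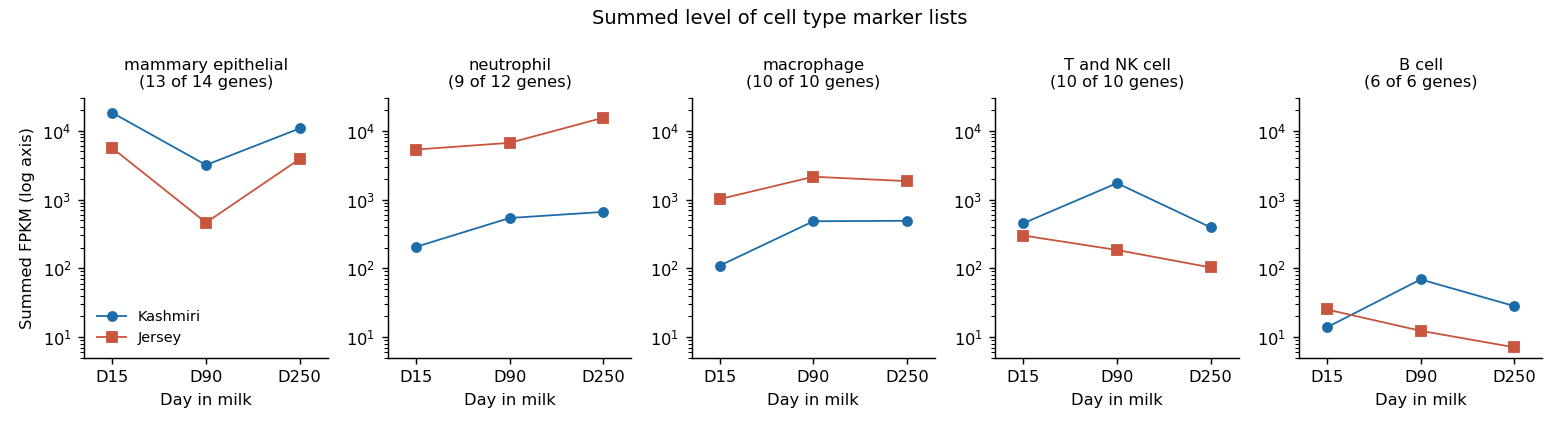
Summed FPKM (log axis, 1 value per group) of the cell type marker lists by day in milk, with Kashmiri cattle as blue circles and Jersey cattle as red squares. The epithelial sum is lowest at D90 in both breeds (3175 and 461 FPKM), the T and NK cell sum peaks in Kashmiri cattle at D90 (1730 FPKM), and the neutrophil sum is higher in Jersey cattle on every day.

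For the 3 clock genes with the widest range, the genes of most similar profile were sought over the 6 groups among 8567 names with at least 1 FPKM throughout. Likeness was the root mean square difference of log2(FPKM + 1) after each gene was centred on its own mean. PER1 was nearest to PIK3R1 (0.19), a regulatory subunit of PI3 kinase, SATB1 (0.20), a chromatin organizer known from T cells, and an entry with an Ensembl identifier only, ENSBTAG00000011019 (0.22). SATB1 was at 23.8, 46.8 and 17.2 FPKM in Kashmiri cattle and at 7.01, 4.20 and 4.41 FPKM in Jersey cattle, close to PER1 in both shape and level.

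ARNTL was nearest to a joined entry that includes GPR52 (0.13), to DMTF1 (0.14), a cyclin D binding transcription factor, and to TSPYL2 (0.17). DBP was nearest to IAH1 (0.12), RAB4A (0.12), a GTPase of endosome recycling, and FPGS (0.13), which adds glutamate to folates. IAH1 was at 36.4, 9.96 and 15.6 FPKM in Kashmiri cattle and at 23.3, 9.46 and 10.8 FPKM in Jersey cattle. With 6 points drawn from 8567 names, close profiles are a description of these groups.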

How the data were processed

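Stranded poly(A) libraries were sequenced from epithelial cells of the milk of both breeds. The authors trimmed the reads and used Bowtie2 and TopHat for alignment to UMD3.1 and Cufflinks and Cuffdiff for quantification, and deposited 1 FPKM value per entry and group. The table had 61264 entries, 25121 of them named. Its columns name Jersey or Local cattle and a stage, and Local was taken as Kashmiri. The reads behind each FPKM are unknown, so no interval could be given.

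Joined names were split before matching, and a name carried by several entries was represented by the entry of highest mean FPKM. Genes with at least 1 FPKM in either group were compared by log2 ratio with a pseudocount of 1 FPKM, and a ratio of at least 1 in either direction was called. No test was possible, because each group had 1 value. Named were all clock genes, every gene of the other clock lists past the limit at least once, and the 3 nearest profiles of the 3 genes with the widest range. RORB, ARNTL2, NR1D2, BHLHE41, TIMELESS, CSNK1D and USP2 are given by range only, and 2 further genes of these lists are not reported here. The members and lists were chosen with earlier results of these data known.

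Alternatives were a pseudocount of 0.1 FPKM, a limit of 0.01 FPKM, a log2 limit of 2, rescaling by the summed FPKM without milk protein genes, rescaling by the upper quartile, and summed entries of a repeated name. Centring on the median of all genes was added after the data were seen. The code was tested on simulated data. Scripts were run in Python 3.11.15 with pandas 2.3.3, numpy 2.4.6 and, for the plots, matplotlib 3.10.9. Values per library, gene coordinates and promoter sequences were not used here.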

Additional observations from a re-analysis of the deposited data

How the results depend on the processing

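Of the 15 calls of clock genes, 15 were kept with a pseudocount of 0.1 FPKM, with a limit of 0.01 FPKM and with repeated names summed, 14 with the upper quartile, 13 with ratios centred on the median of all genes (an alternative chosen after seeing the data), 9 with FPKM rescaled to the sum and 1 with a log2 limit of 2. No call turned to the other direction. A pseudocount of 0.1 FPKM lets low genes such as NPAS2 and CLOCK pass. The number of clock genes called was then 3 for Kashmiri D250 over D90 and 2 for Jersey D90 over D15. It was 2 for Jersey D250 over D15 and 3 between breeds at D250. Of all genes, 25.4%, 39.2%, 51.9% and 44.0% were called in these comparisons. NPAS2 was also added for Kashmiri D90 over D15 and between breeds at D15, beside 43.2% and 37.0% of all genes. CLOCK was added for Kashmiri D250 over D15, beside 35.4%. With a log2 limit of 2 the number of clock genes called was 1 between breeds at D90 and 0 in the other comparisons. With FPKM rescaled to the sum it was 2 for Kashmiri D250 over D90, 1 for Jersey D250 over D15, 1 between breeds at D15 and 5 between breeds at D250, and for Kashmiri D250 over D15 it went from 2 lower (NR1D1 and DBP) to 3 higher (ARNTL, CLOCK and CRY1). With the upper quartile the number was 1 for Kashmiri D250 over D15, 1 for Jersey D250 over D15 (DBP, lower) and 4 between breeds at D250. Of all genes, 26.2%, 42.0% and 43.1% were called there. Centred on the median the number was 1 for Kashmiri D250 over D15 and 1 for Jersey D250 over D15, beside 25.5% and 42.5% of all genes. Between breeds at D15 NR1D1 lost its call when centred, beside 28.0% of all genes called. The cause was not tested.

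The split of calls over all genes moved with the scaling. Higher calls were 43.7% of all calls for Kashmiri D250 over D15 as deposited, 93.8% with the sum and 64.2% with the upper quartile. Between breeds at D250 they were 66.0%, 27.2% and 38.2%. In 5 of the 6 groups, 3 milk protein genes (PAEP, CSN1S1 and CSN2) had a value of 0. CSN3 and LALBA were at 0 in some groups as well. The study lists CSN1S1, CSN2, CSN3 and LALBA among its highest genes in every group, so these deposited values differ from it. The sums used for rescaling leave out the milk protein genes, so these zeros do not enter them. No paired analysis was possible because each group had 1 value, and leaving out replicates was not run for the same reason.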

Other observations

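Some gene groups that respond to temperature, stress hormones or handling, and are known to touch the clock, differed between the groups. CIRBP, a cold-inducible RNA-binding protein, was at 387, 116 and 103 FPKM in Kashmiri cattle on D15 (March), D90 (July) and D250 (December), and at 269, 167 and 342 FPKM in Jersey cattle. From D15 to D90 its log2 ratio was -1.73 in Kashmiri and -0.69 in Jersey cattle. RBM3, the other cold-inducible gene of the list, lay between 72.2 and 137 FPKM with no call, so the D250 level of CIRBP in Jersey cattle was not shared by RBM3, which was at 89.0 FPKM there. CIRBP was higher in Jersey than in Kashmiri cattle at D250 (1.73), a call lost with FPKM rescaled to the sum.

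Of 6 glucocorticoid response genes, FKBP5 was at 33.6, 36.6 and 27.3 FPKM in Kashmiri cattle and at 8.89, 8.76 and 16.0 FPKM in Jersey cattle. It was lower in Jersey cattle past the limit at D15 (-1.81) and D90 (-1.95), as was PER1. At D15 3 of the 6 genes were lower and 2 higher in Jersey cattle, beside 13.0% of all genes lower. At D90 2 of 5 tested were lower and 2 higher, beside 15.9% of all genes lower. At D250 0 of 5 were lower and 2 were higher. TSC22D3 was at 100.3, 161 and 75.7 FPKM in Kashmiri cattle and at 71.0, 76.0 and 85.6 FPKM in Jersey cattle, and was lower in Jersey cattle at D90 (-1.07), a call lost with FPKM rescaled to the sum. DUSP1 and SGK1 of the same list were higher in Jersey cattle on all 3 days, so the list did not move one way; both were singled out after their values were seen.

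Of 6 immediate early genes, 3 were higher in Jersey cattle past the limit at D15, 5 at D90 and 6 at D250, where 1781 of 11202, 1905 of 11209 and 2651 of 11642 of all genes tested were higher. FOS was at 35.8, 69.5 and 27.5 FPKM in Kashmiri cattle and at 291, 542 and 2332 FPKM in Jersey cattle. PER1, which is itself inducible as an early gene, was lower in Jersey cattle on the same days. In Kashmiri cattle 4 of the 6 were higher at D90 than at D15, as PER1 was, beside 14.7% of all genes. There 4 of the 6 were also lower at D250 than at D90, as PER1 was, beside 8.77% of all genes. Of the latter 4 calls, 1 remained with FPKM rescaled to the sum. IER2 was nearly level from D15 to D90 in Kashmiri cattle (-0.08), and EGR1 was not lower at D250 than at D90 (0.74).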
